A study of Homo sapiens with 27 samples.

Results

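The transcripts of 56 human genes of mitosis and the kinetochore were followed in 27 RNA sequencing libraries of the pancreatic ductal adenocarcinoma cell line Panc1. The genes were chosen by name, with earlier results of these data known, so shares of members called describe this list only. The list held 56 of the 21487 genes in the count table. The series was titled as a study of ARNT in the hypoxic response. ARNT, also called HIF1B, is the shared partner subunit of the hypoxia-inducible factors. The cells were parental Panc1 and 2 clones in which ARNT had been knocked out with CRISPR-Cas9, called clone A and clone B. Each was kept for 48 hours in 3 conditions: normoxia (20% O2) in regular medium, which was DMEM with serum and antibiotics, hypoxia (1% O2) in the same medium, or hypoxia in TIFM, a medium composed to resemble the interstitial fluid of pancreatic tumours. That gave 9 groups of 3 replicates. TIFM was never given in normoxia, so its comparison is with regular medium under hypoxia. Each knockout genotype is 1 clone, so what a clone shares with no other can belong to the clone as well as to the knockout. The labels name no clone without the knockout. What both clones share therefore cannot be told apart from an effect of cloning or editing. The labels do not say that replicates were separate cultures, and p-values measure the spread between these libraries, which may be technical.

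A dividing cell enters mitosis when cyclin B activates the kinase CDK1, and the kinases PLK1, AURKA and AURKB then drive spindle assembly and chromosome alignment. Kinetochores are built on centromeres marked by the histone variant CENPA, and the NDC80 complex in them holds microtubule ends. The spindle checkpoint (BUB1, BUB1B, BUB3, MAD2L1, TTK) restrains CDC20 and the anaphase-promoting complex until all kinetochores are attached, after which separase cuts cohesin and the cytokinesis machinery divides the cell. Most of these genes are transcribed late in the cell cycle. Their promoters are known for CCAAT boxes, bound by NF-Y, and for the cell cycle genes homology region (CHR), bound by MuvB complexes that repress together with RBL1 or RBL2 and activate together with MYBL2 and FOXM1.

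Promoters of members that stood together or apart are shown as the 250 bases before the RefSeq start (GRCh38.p14), 5′ to 3′ on the gene's strand. Capitals mark a CHR match (TTTGAA or TTCGAA) and a CCAAT match, each on either strand. CCNB2, PLK1 and TOP2A hold both motifs and CENPE, whose level also lay lower in hypoxic than in normoxic parental cells, holds neither in these letters.
CCNB2 (chr15:59104896-59105145, plus strand): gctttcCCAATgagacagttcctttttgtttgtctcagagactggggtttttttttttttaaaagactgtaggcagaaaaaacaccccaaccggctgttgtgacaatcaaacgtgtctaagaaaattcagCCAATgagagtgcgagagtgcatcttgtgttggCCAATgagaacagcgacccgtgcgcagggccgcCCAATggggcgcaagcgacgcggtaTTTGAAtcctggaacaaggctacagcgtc
PLK1 (chr16:23678639-23678888, plus strand): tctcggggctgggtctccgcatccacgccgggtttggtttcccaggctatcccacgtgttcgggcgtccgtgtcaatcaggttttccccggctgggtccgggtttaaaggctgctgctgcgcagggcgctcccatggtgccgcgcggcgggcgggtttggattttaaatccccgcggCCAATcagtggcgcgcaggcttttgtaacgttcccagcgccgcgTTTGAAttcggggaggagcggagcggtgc
TOP2A (chr17:40417897-40418146, minus strand): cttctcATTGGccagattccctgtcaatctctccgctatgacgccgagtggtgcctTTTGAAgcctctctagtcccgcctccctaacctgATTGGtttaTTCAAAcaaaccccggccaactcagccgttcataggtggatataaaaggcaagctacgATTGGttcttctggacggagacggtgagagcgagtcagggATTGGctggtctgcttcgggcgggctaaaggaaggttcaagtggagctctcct
CENPE (chr4:103198344-103198593, minus strand): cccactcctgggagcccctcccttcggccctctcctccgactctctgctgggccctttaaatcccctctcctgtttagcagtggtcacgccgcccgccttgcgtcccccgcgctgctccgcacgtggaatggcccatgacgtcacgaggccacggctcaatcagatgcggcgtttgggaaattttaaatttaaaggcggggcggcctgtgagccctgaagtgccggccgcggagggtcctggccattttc
In CCNB2 and PLK1 the CHR match began 29 bases before the start. In TOP2A the 2 CHR matches lay farther off, 194 and 151 bases before it.

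RefSeq promoters, from 250 bases before to 50 after the start, were found for 47 of the 56 members, and 9 had no entry. Of these 47, 32 (68.1%) held a CHR match, against 16.6% of 27305 promoters of the same length. A CCAAT match was in 35 members (74.5%, against 35.7%), and both motifs were in 26 (55.3%, against 6.58%). At least 2 CCAAT matches were in 21 members (44.7%, against 11.3%). The nearest CHR match lay within 50 bases of the start in 27 of the 32. The core of the hypoxia response element (ACGTG or GCGTG, either strand) was in 29 members (61.7%, against 48.4% of the 27305). Among 10643 other promoters of genes tested here the shares were 61.7% for this core, 11% for CHR, 35.6% for CCAAT and 4.45% for CHR and CCAAT both. A match is a description of letters and not a bound site. PLK1 and CENPE hold this core, CCNB2 holds it too, and TOP2A does not.

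Of the 56 members, 54 passed the filter on low counts and were tested. NUSAP1, a spindle microtubule bundler, had at most 3 counts in a library and PRC1, the crosslinker of the central spindle, at most 5. Both share most of their exon length with a second annotated gene, NUSAP1 62.2% with AC087721.2 and PRC1 58.4% with AC068831.7. AC087721.2 held 544 to 9029 counts in these libraries and AC068831.7 0 to 36. The part of this overlap in the low counts was not tested, and no level is read from them. CENPN, which recognises CENPA nucleosomes, was low as well (0.815 to 2.41 CPM, that is, each library's counts put on one scale by its total and TMM factor) and shares 22.8% of its exon length with other genes. NCAPG shares 33.1%, FOXM1 15.9%, PLK1 12.5% and BUB1B 10.2%. Part of their reads could have been lost to the overlap, or part of their counts could belong to an overlapping gene. Which of these holds was not tested. Per kilobase of exon, TPX2, CCNB1 and TOP2A were the 3 highest members in parental normoxia, at 243, 163 and 154 CPM per kb. ESPL1, at 7.29 CPM per kb, was the lowest after CENPN and the 2 untested members.

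Libraries held 26057022 to 38341713 counts, with a median of 31727174. The biological coefficient of variation was 14.1% over all groups and 29.3% in clone A in hypoxic TIFM. ARNT transcripts were present in all 27 libraries (44.6 to 77.4 CPM), and transcript counts do not test whether the edited gene makes protein. All 9 epithelial and line markers listed passed 1 CPM in some library, with GATA6 as low as 0.193 CPM in another. Of 17 markers of other cell types, 8 passed 1 CPM in some library, INS was at 0 in all 27, and the summed level was 643 to 898 CPM in clone B in regular medium, against 42.5 to 149 in parental cells and clone A in that medium. In hypoxic TIFM it was 46.4 to 70.3 CPM in parental cells, 42.3 to 57.7 in clone A and 148 to 212.5 in clone B. COL1A1, a collagen gene, ranged from 20.7 to 887.9 CPM over the libraries. The summed level of the epithelial and line markers in regular medium was 9762 to 13090 CPM in parental cells, 7459 to 8623 in clone A and 10410 to 13630 in clone B. It was 5680 to 7410, 3023 to 4951 and 2929 to 4105 CPM in the same order in hypoxic TIFM, and its part in the TIFM results was not tested. KRT8, KRT18 and VIM reached the highest levels of the 9 (up to 5534, 2531 and 5996 CPM), so the sum says little of the others. CDH1 ranged from 1.13 to 61.5 CPM over the libraries. Against parental cells in normoxia, 2 of the 9 were called higher and 6 lower in clone A, with a lowest log2 difference of −5.21. In clone B 0 were higher and 1 lower, with a lowest difference of −5.57.

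Hypoxia lowered most mitotic transcripts in parental cells. Of the 54 tested members, 46 fell and none rose, while 30.2% of all tested genes were called and 14.9% were called lower. A gene counts as called where edgeR's quasi-likelihood test gave a p under 0.05 after Benjamini-Hochberg adjustment over the 13943 genes tested. The median log2 change of the members was −0.76 (range −1.18 to 0.23), beside −0.0022 for all genes. In 51 of the 54 all 3 hypoxic libraries lay below all 3 normoxic ones. The share of all tested genes that did so was not counted, so the 51 cannot be set against a background. In bulk RNA, fewer cells in mitosis and less of these transcripts per cell cannot be told apart.

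**Figure D1:**
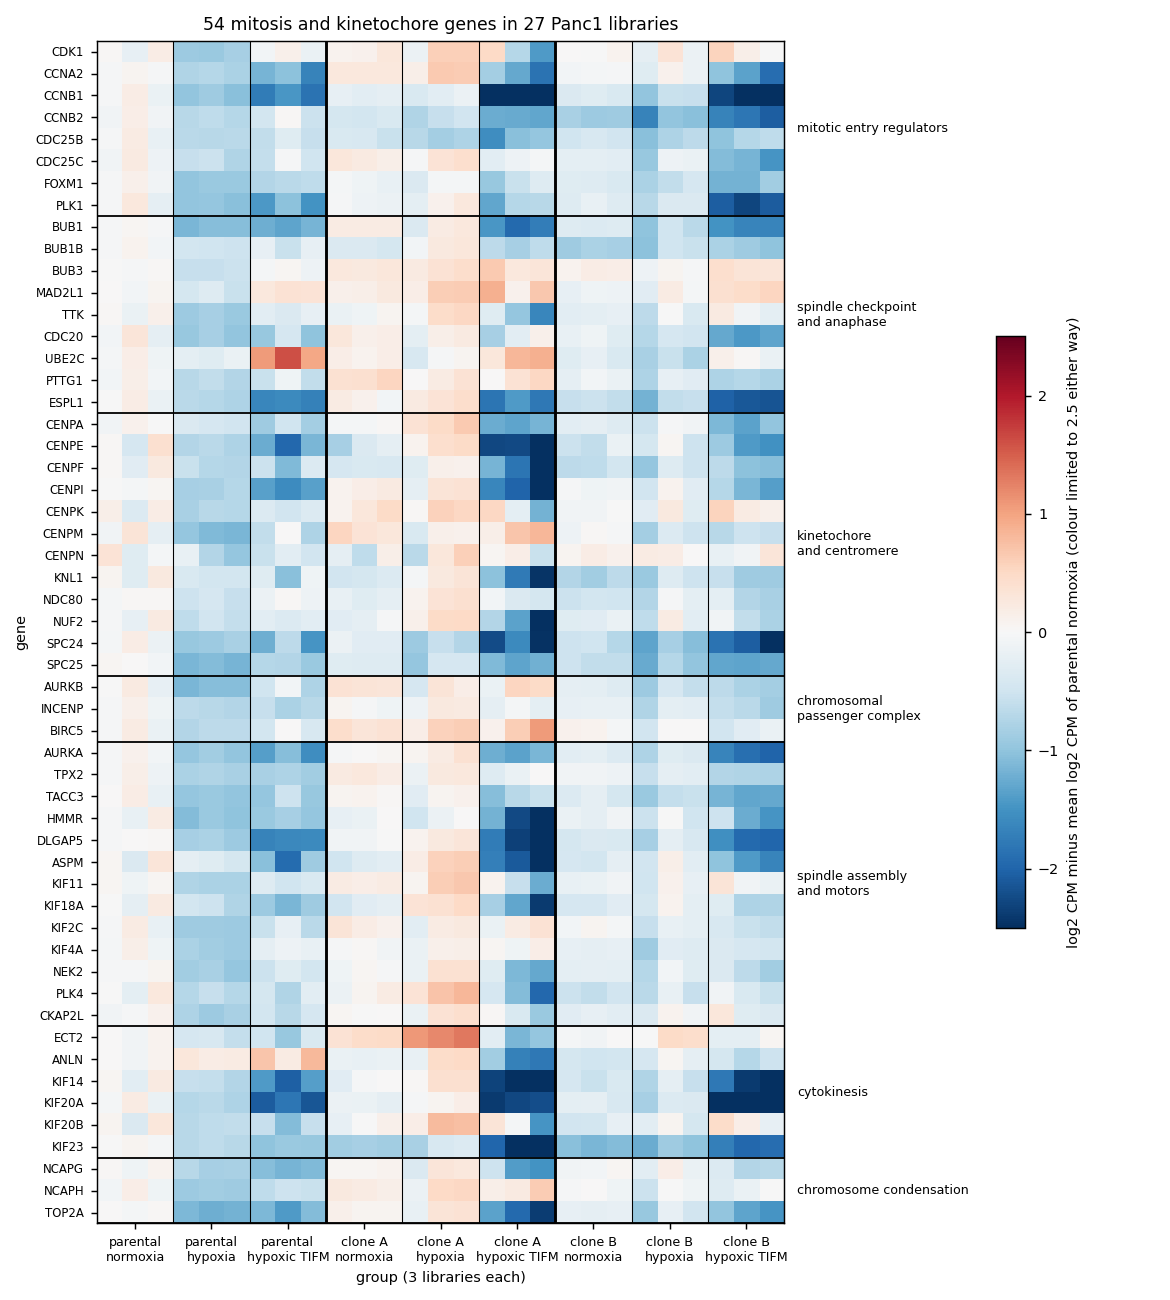
Level of each of the 54 tested members in each of the 27 libraries, as log2 CPM minus the mean log2 CPM of parental normoxia (rows: genes by role; columns: libraries by group; blue lower, red higher; colours are limited to 2.5 either way, so larger differences share the end colour). Parental hypoxia is blue in nearly every row, and the 3 hypoxic TIFM groups differ from row to row. In clone A in hypoxia, libraries 2 and 3 are mostly red, while library 1 has a median of −0.15.

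Among regulators of mitotic entry, all 8 fell in hypoxic parental cells. CCNB1 (chromosome 5, 69167010 to 69178245, plus strand), the cyclin that activates CDK1, was at 408, 468 and 371 CPM in the 3 normoxic libraries and at 209.6, 225 and 201 in the hypoxic ones, with no overlap, a log2 change of −0.97 ± 0.15 (SE, adjusted p = 2.28e-05). PLK1 (chromosome 16, 23677656 to 23690367, plus strand), a kinase of mitotic entry and spindle assembly, went from 131, 160.0 and 115 CPM to 67.9, 68.4 and 65.3, a log2 change of −1.01 ± 0.16 (SE, adjusted p = 2.2e-05). CDK1 itself went from 196, 166 and 219 to 103, 101 and 109 CPM (log2 −0.89). All 3 genes stood lower in every hypoxic library than in any normoxic one. FOXM1, the transcription factor of late cell cycle genes, went from 53.3, 59.8 and 51.1 to 27.6, 28.8 and 28.6 CPM (log2 −0.95).

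Spindle checkpoint and anaphase genes fell in 8 of 9 cases. BUB1, a checkpoint kinase, was among the 4 members with the largest fall, at log2 −1.09 ± 0.13 (SE, adjusted p = 8.66e-07). CDC20, the activator of the anaphase-promoting complex that the checkpoint holds back, went from 174, 224 and 156 to 94.9, 103 and 91.7 CPM (log2 −0.93). BUB1B, the checkpoint pseudokinase BUBR1, had a smaller fall, from 136, 148 and 133 to 102, 98.1 and 96.5 CPM (log2 −0.49), and so had its partner BUB3, from 351, 345 and 357 to 236, 236 and 243 CPM (log2 −0.56). None of these groups overlapped. The member not called was UBE2C (chromosome 20, 45812576 to 45816957, plus strand), the ubiquitin-conjugating enzyme of the anaphase-promoting complex. It was at 82.0, 95.1 and 78.6 CPM in normoxia and 71.3, 68.7 and 75.9 in hypoxia, also with no overlap (log2 −0.24 ± 0.16 (SE, adjusted p = 0.248)).

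In the kinetochore, 9 of 12 tested members fell. SPC25, a subunit of the NDC80 complex, changed most, by log2 −1.12 ± 0.13 (SE, adjusted p = 3.79e-07). NDC80, which binds the microtubule, went from 85.5, 90.2 and 90.4 to 62.1, 66.2 and 59.5 CPM (log2 −0.50), and CENPA from 54.7, 62.6 and 57.5 to 45.5, 43.4 and 41.7 CPM (log2 −0.42). These 2 were among the smaller falls of the group, although their hypoxic and normoxic libraries did not overlap. The chromosomal passenger complex corrects wrong attachments, and its 3 members all fell. AURKB, its kinase, went from 36.0, 42.1 and 31.3 to 16.4, 17.2 and 17.2 CPM, a log2 change of −1.10 ± 0.19 (SE, adjusted p = 7.29e-05), and BIRC5 (survivin) from 237, 280.5 and 216 to 145, 155 and 154 CPM (log2 −0.69).

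Of 13 tested spindle genes, 12 fell. AURKA, the centrosome kinase, went from 235, 260.5 and 230.1 to 124, 132 and 121 CPM (log2 −0.95), and KIF11, the motor that pushes spindle poles apart, from 203, 183 and 204 to 116, 114 and 114 CPM (log2 −0.78). Cytokinesis genes fell in 3 of 6 cases. KIF20A (chromosome 5, 138178719 to 138187715, plus strand), a motor that brings the passenger complex to the midzone, went from 129, 153 and 119 to 80.8, 82.9 and 77.8 CPM (log2 −0.73), and ECT2 (chromosome 3, 172750682 to 172821474, plus strand), the exchange factor that activates RHOA at the division plane, from 330.2, 309 and 347 to 246, 250.4 and 217 CPM (log2 −0.47). TOP2A (chromosome 17, 40388516 to 40417950, minus strand), the topoisomerase that untangles sister chromatids, fell furthest of all members. It was at 1004, 956 and 1013 CPM in normoxia and 452, 423 and 437 in hypoxia, a log2 change of −1.18 ± 0.19 (SE, adjusted p = 4.18e-05), and the 2 condensin subunits NCAPG and NCAPH fell with it (log2 −0.78 and −0.89).

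The 8 members without a call, named after their values were seen, were UBE2C, CENPN, KNL1, NUF2, ASPM, ANLN, KIF14 and KIF20B. ANLN, a scaffold of the contractile ring, was the 1 member with a change above 0 (log2 0.23 ± 0.19 (SE, adjusted p = 0.373)). The others lay between −0.24 and −0.67, and the smallest called change was −0.42, that of CENPA. With only the 2 parental groups in the fit, 52 members fell and 1 rose.

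Related genes outside the 56 moved less evenly. Of 29 other kinetochore and centromere genes tested, 17 fell and 1 rose (median log2 −0.55), with CDCA8 at −1.08 and CENPX, the gene that rose, at 0.65. Of 27 other spindle and cytokinesis genes 20 fell and 1 rose, with CDCA3 at −1.21 and AURKC at 1.19. Subunits and regulators of the anaphase-promoting complex fell in 5 of 16 cases and condensin and cohesin subunits in 4 of 14, with medians of −0.15 and −0.18. Of 17 MuvB, DREAM and E2F regulators 10 fell and 1 rose, with E2F8 at −1.18 and RBL1, an RB family member, at −0.99.

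In the knockout clones few members or none were called under hypoxia. In clone A 7 members rose under hypoxia and none fell, with 22.2% of all genes called and 10.4% called higher. The share of members called higher, 13.0%, was near that of all genes. The members' median log2 change was 0.19. ASPM, a spindle pole protein, had the largest rise (0.82 ± 0.24 (SE, adjusted p = 0.0165)), followed by the kinetochore motor CENPE (0.78), ECT2 (0.77) and the motor KIF18A (0.74). The other 3 that rose were BUB1B (0.55), CENPA (0.53) and NDC80 (0.52). In clone B no member was called, with 9.30% of all genes called, 4.46% higher and 4.84% lower. There 14 members had an unadjusted p under 0.05 in edgeR, DESeq2 called 1 member lower, and the median was −0.12. The changes ranged from log2 −0.52 for CENPM to 0.35 for ECT2, both not called. Among the 54 members the hypoxia change was correlated with transcript GC content at r = −0.59 in clone A and −0.66 in clone B. Over all genes r was −0.0047 and −0.027. With transcript length the members' r was 0.55 and 0.48. In clone A the median change was 0.31 in the 27 members of lower and −0.02 in the 27 of higher GC content. The part of GC content and length in these changes was not tested.

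Levels by library show how the clones differ from parental cells. PLK1 was at 132, 122 and 121 CPM in normoxic and 114, 145 and 159.8 in hypoxic clone A, and at 107, 118 and 107 and 82.7, 104 and 104 in clone B. TOP2A was at 1081, 1038 and 1045 and 869, 1232 and 1266 CPM in clone A, and at 857, 844 and 856 and 512, 856 and 711 in clone B. ECT2 was at 424, 449 and 457 and 692, 752 and 819.9 CPM in clone A, and at 318, 309 and 333 and 324, 456 and 445 in clone B. For PLK1 and TOP2A the hypoxic libraries of clone A straddled the normoxic ones, and for ECT2 all 3 lay above. In each clone the hypoxic library numbered 1 was the lowest of the hypoxic 3 for all of these genes. The median log2 level of the 54 members relative to parental normoxia was −0.15 in that library of clone A against 0.31 and 0.36, and −0.72 in that of clone B against −0.20 and −0.36.

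**Figure D2:**
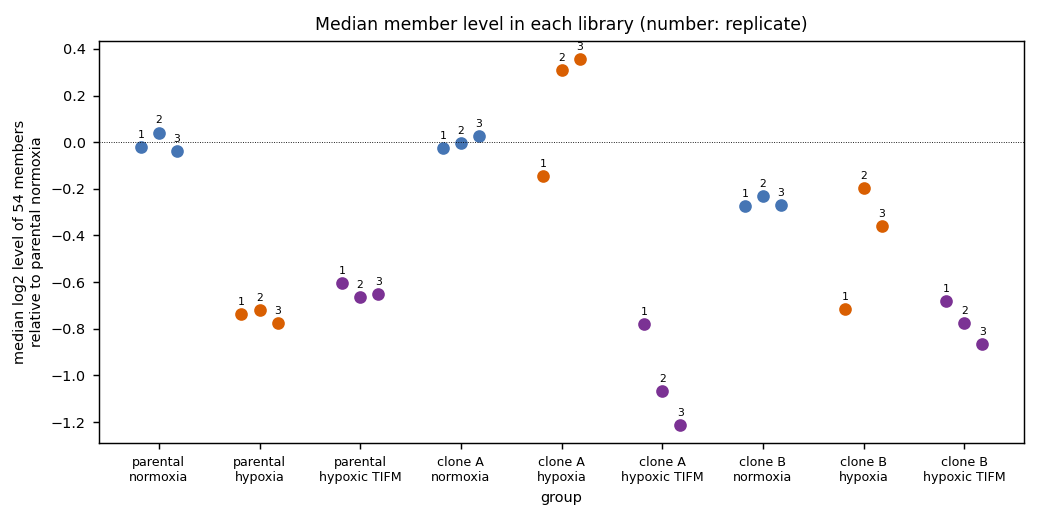
Median over the 54 tested members of log2 CPM minus the mean of parental normoxia, for each library (points, labelled with the replicate number, coloured by condition, one column of points per group). The 3 parental hypoxia libraries lie between −0.77 and −0.72, the hypoxic libraries of clone A between −0.15 and 0.36 and those of clone B between −0.72 and −0.20.

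These libraries bear on the counts. In clone A 3 members were called without hypoxic library 3, 4 without normoxic library 1, and 10 without hypoxic library 1. With only the 2 groups of clone A in the fit 21 rose and 3 fell, and with only those of clone B 2 rose and 12 fell, so the counts of 7 and 0 depend on which groups enter the fit. Without hypoxic library 2 of clone B, 2 members were called.

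The difference between the hypoxia responses was tested itself. The change of clone A minus that of parental cells was above 0 in all 54 tested members and called in 33, all higher, with 6.23% of all genes called, 2.19% higher and 4.04% lower. The median difference was 0.96. It was largest for CENPE (1.55 ± 0.34 (SE, adjusted p = 0.00547)), KIF18A (1.32), KIF20B (1.29), a cytokinesis motor, and TTK (1.28), the checkpoint kinase MPS1. By role, 12 of 13 spindle genes, 6 of 9 checkpoint and anaphase genes, 4 of 8 entry regulators, 4 of 6 cytokinesis genes and 4 of 12 kinetochore genes were called. UBE2C had a difference of 0.00 ± 0.22 (SE, adjusted p = 0.999). FOXM1 was at 42.8, 53.1 and 53.1 CPM in hypoxic clone A and 31.4, 35.5 and 40.6 in hypoxic clone B, against 27.6, 28.8 and 28.6 in hypoxic parental cells, and its response exceeded the parental one by log2 0.93 and 0.68 in the same order. For clone B the difference from parental cells was called in 12 members, all higher, with 4.73% of all genes called, 1.49% higher and 3.24% lower, and its median was 0.65. The largest were CKAP2L (0.98 ± 0.26 (SE, adjusted p = 0.0258)), a spindle protein, ECT2 (0.82), PLK1 (0.82) and AURKA (0.77). Both differences are taken against the same parental libraries.

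The count for clone B moved most with single libraries: 22 without its hypoxic library 1, 1 without its hypoxic library 2, and 3 or 4 without any one of its hypoxic library 3, its 3 normoxic libraries, the 3 parental hypoxic libraries or parental normoxic library 2. Between the clones the hypoxia responses were called different in no member (0.00% of all genes) by edgeR and in 0 by DESeq2, with 6 members at an unadjusted p under 0.05 in edgeR. The response of clone B minus that of clone A was below 0 in 52 of 54 members, with a median of −0.30 and a range of −0.64 to 0.02. ASPM had the lowest value, −0.64 ± 0.34 (SE, adjusted p = 0.838). The absence of calls does not show that the clones respond alike.

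**Figure D3:**
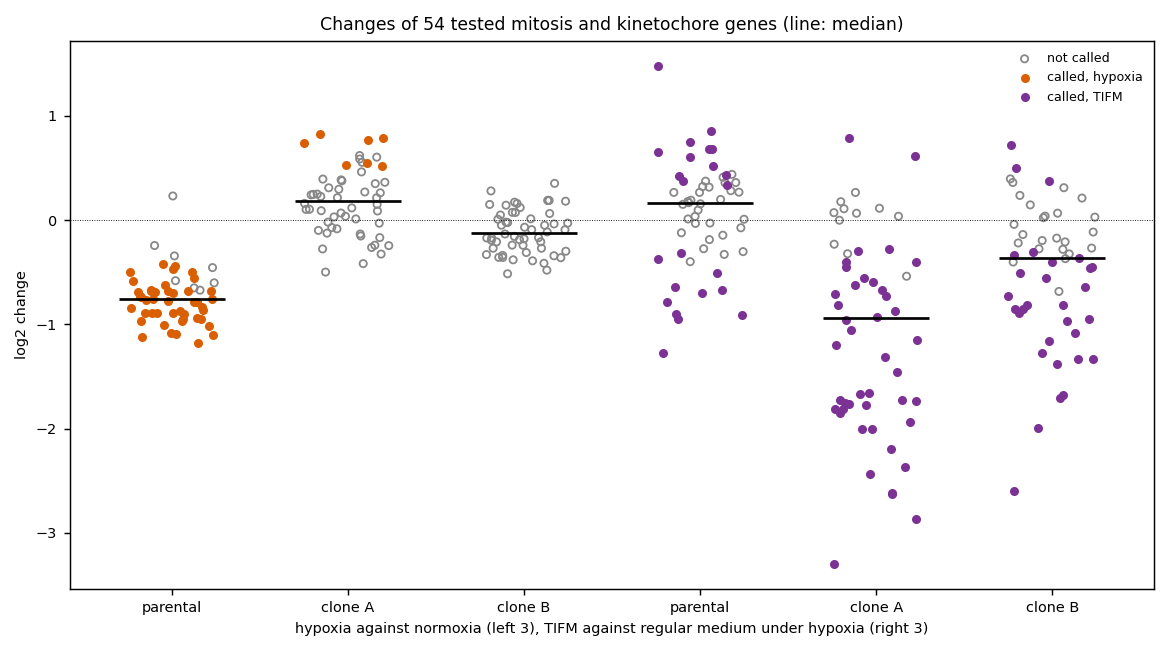
Log2 change of each of the 54 tested members (points, spread sideways at random; filled where called, open where not; bar: median) for hypoxia against normoxia and for TIFM against regular medium under hypoxia, in the 3 genotypes. The medians for hypoxia are −0.76, 0.19 and −0.12 in parental cells, clone A and clone B, and those for TIFM 0.16, −0.94 and −0.37.

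In normoxia 6 of the 54 members in clone A, and 9 in clone B, were called different from their parental level. Those of clone A were 2 higher and 4 lower, with 31.6% of all genes called. Over the 54 members the difference of clone A was above 0 in 26 and below 0 in 28, with a median of −0.02. KIF23, the motor of the centralspindlin complex, was lowest relative to parental cells, at 259.6, 274 and 252 CPM in parental cells, 144, 146 and 144 in clone A and 127, 119 and 124 in clone B, with no overlap. Its log2 difference was −0.86 ± 0.13 (SE, adjusted p = 1.24e-05) in clone A and −1.09 ± 0.13 (SE, adjusted p = 4.17e-07) in clone B. Also lower in clone A were CDC25B (−0.45), CCNB2 (−0.43) and BUB1B (−0.39), and higher were PTTG1 (securin, 0.44) and BUB3 (0.26). In clone B 9 members were lower and none higher, with 26.5% of all genes called and 13.3% called lower. After KIF23 the largest were CCNB2 (−0.88), BUB1B (−0.84) and the kinetochore scaffold KNL1 (−0.77). Over the 54 members the difference of clone B was below 0 in 50, with a median of −0.27, beside 0.008 for all genes. This normoxic level is the baseline of the hypoxia response of clone B. Without normoxic library 3 of clone A 1 member was called in clone A, and 2 without parental normoxic library 2. With only the 2 groups compared, 34 members were lower in clone B and none higher, and in clone A 8 were higher and 15 lower.

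In hypoxia most members in clone A, and fewer in clone B, were called above their parental level. Clone A was higher in 48 of 54 members and lower in none, with 41.4% of all genes called and 20.5% called higher, and the median log2 difference was 0.93. ECT2 differed most (1.67 ± 0.17 (SE, adjusted p = 1.53e-08)), then TOP2A (1.36), the centriole kinase PLK4 (1.30) and CDK1 (1.28). All 13 spindle genes, all 3 passenger complex genes and 11 of 12 kinetochore genes were higher. The 6 without a call, named after their values were seen, were CCNB2 (0.08), CDC25B (−0.09), UBE2C (0.14), SPC24 (0.15), ANLN (0.05) and KIF23 (0.17). Clone B was higher in 24 members and lower in 3, with 35.9% of all genes called, 16.9% higher and 19.0% lower, and the median was 0.38. The largest were CDK1 (0.89 ± 0.28 (SE, adjusted p = 0.0146)), ECT2 (0.78), CKAP2L (0.72) and CENPN (0.71), the last at a low level. Lower were CCNB2 (−0.52), UBE2C (−0.47) and KIF23 (−0.36). For clone B the count fell to 13 without its hypoxic library 2, 16 without its hypoxic library 3, 16 without parental hypoxic library 1 and 15 without parental hypoxic library 3.

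TIFM split the members in hypoxic parental cells. Against regular medium under hypoxia, 12 rose and 11 fell, with 42.2% of all genes called, 21.8% higher and 20.4% lower, so the members' share of 23 in 54 was near that of all genes. UBE2C rose most: it was at 71.3, 68.7 and 75.9 CPM in regular medium and 177, 260.5 and 166 in TIFM, with no overlap, a log2 change of 1.48 ± 0.16 (SE, adjusted p = 6.46e-08). CDK1 rose from 103, 101 and 109 to 183, 209 and 172 CPM (log2 0.85), the checkpoint protein MAD2L1 by log2 0.75 and AURKB by 0.68. KIF20A fell from 80.8, 82.9 and 77.8 to 31.6, 38.2 and 30.3 CPM, a log2 change of −1.27 ± 0.13 (SE, adjusted p = 2.39e-08). Next came KIF14, a cytokinesis motor (−0.95), ESPL1, which is separase (−0.91), and ASPM (−0.90). CCNB1 fell from 209.6, 225 and 201 to 124, 151 and 116 CPM (log2 −0.70) while its partner CDK1 rose. The count was 15 without any one of the 3 parental hypoxic libraries in regular medium.

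In clone A most members fell with TIFM. Of the 54 tested, 41 fell, 2 rose and 11 were not called, where 67.2% of all genes were called, 34.2% lower and 33% higher, and the median log2 change was −0.94. KIF14 (chromosome 1, 200551497 to 200620734, minus strand) fell most, from 98.3, 128 and 127 CPM in hypoxic regular medium to 19.4, 9.99 and 6.12 in TIFM, with no overlap, a log2 change of −3.29 ± 0.28 (SE, adjusted p = 1.4e-10). CENPE went from 109, 136 and 142 to 21, 21.4 and 10.5 CPM (−2.87 ± 0.26 (SE, adjusted p = 6.14e-10)), and CCNB1 from 316, 344 and 376 to 58.0, 57.9 and 51.7 CPM (−2.63 ± 0.16 (SE, adjusted p = 3.66e-13)). ASPM followed at −2.62. All 8 entry regulators, all 6 cytokinesis genes, 11 of 13 spindle genes and 9 of 12 kinetochore genes fell, against 4 of 9 checkpoint and anaphase genes and 1 of 3 passenger complex genes. TOP2A went from 869, 1232 and 1266 to 390.4, 257 and 191 CPM (log2 −2.005) and ECT2 from 692, 752 and 819.9 to 273, 149 and 168 CPM (log2 −1.94).

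The members that rose in clone A were UBE2C and CENPM, and the 11 without a call, named after their values were seen, were BUB3, MAD2L1, CDC20, PTTG1, CENPK, CENPN, AURKB, BIRC5, KIF2C, KIF4A and NCAPH. UBE2C went from 64.4, 83.7 and 89.1 to 103, 150.3 and 157 CPM (log2 0.79 ± 0.16 (SE, adjusted p = 8.76e-05)) and CENPM, a kinetochore protein, rose by log2 0.61. AURKB was at 26.9, 45.5 and 40.6 CPM in regular medium and 32.4, 52.7 and 50.8 in TIFM (log2 0.26), and BIRC5 at 272, 363 and 374 and 262, 373 and 506 CPM (log2 0.18). For both genes the 2 groups overlapped, and of the 3 passenger complex members only INCENP was called, at −0.30. BUB3 was at 410.3, 453 and 478 CPM in regular medium and 549.8, 423 and 431 in TIFM (log2 0.07).

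**Figure D4:**
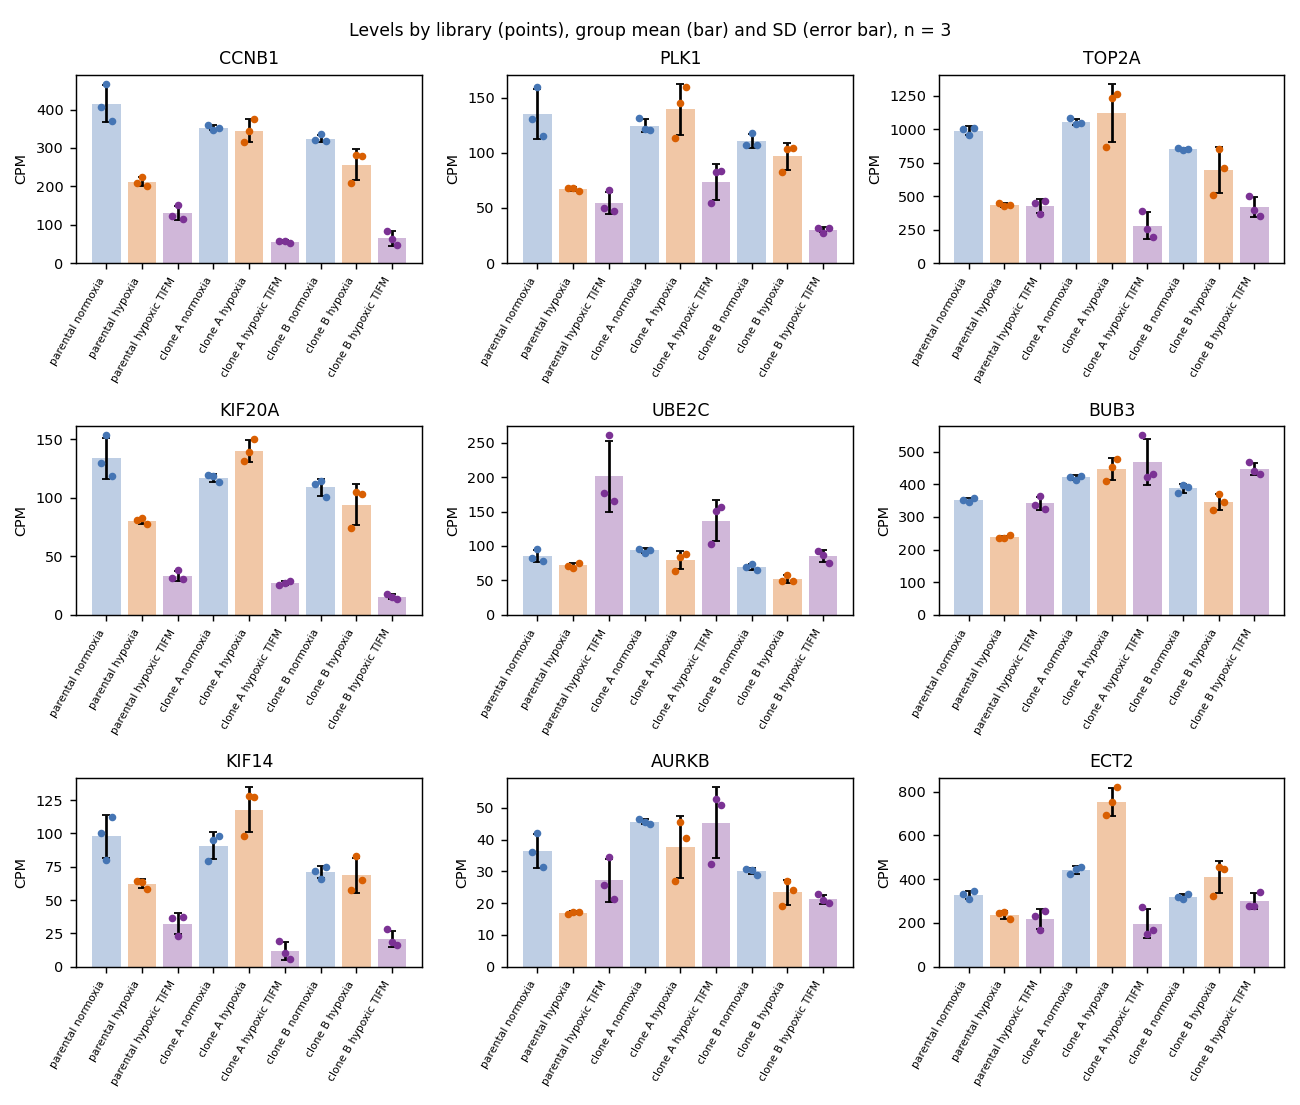
CPM of 9 members in each library (points) with the group mean (bar) and SD (error bar, n = 3), by genotype and condition (blue normoxia, orange hypoxia, purple hypoxic TIFM; each panel has its own axis from 0). CCNB1 and KIF20A are lowest in the TIFM groups of all 3 genotypes, UBE2C is highest in parental TIFM (166 to 260 CPM), and ECT2 is highest in hypoxic clone A (692 to 820 CPM).

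The 3 TIFM libraries of clone A were far apart for many members. CDK1 was at 273, 117 and 71.9 CPM, KIF11 at 209.9, 131 and 83.8 and ECT2 at 273, 149 and 168, with library 1 highest for each. For BIRC5 library 1 was the lowest. The median member level relative to parental normoxia was −0.78, −1.07 and −1.21 in libraries 1, 2 and 3. Over all tested genes, log2 level relative to the other libraries was correlated with the GC content of the transcript at r = 0.24 and 0.33 in libraries 2 and 3 of clone A in TIFM, 0.27 in library 2 of parental TIFM and −0.30 in library 1 of clone B in TIFM, genes not being independent of each other. Among the 54 members the TIFM change in clone A was correlated with transcript GC content at r = 0.48, against 0.17 over all genes, and its median was −1.67 in the 27 members of lower and −0.40 in the 27 of higher GC content. With offsets for GC content and transcript length, added after the data were seen, 41 members still fell and 2 rose, with a median of −0.78. The part of GC content in the size of each member's change was not tested.

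**Figure D5:**
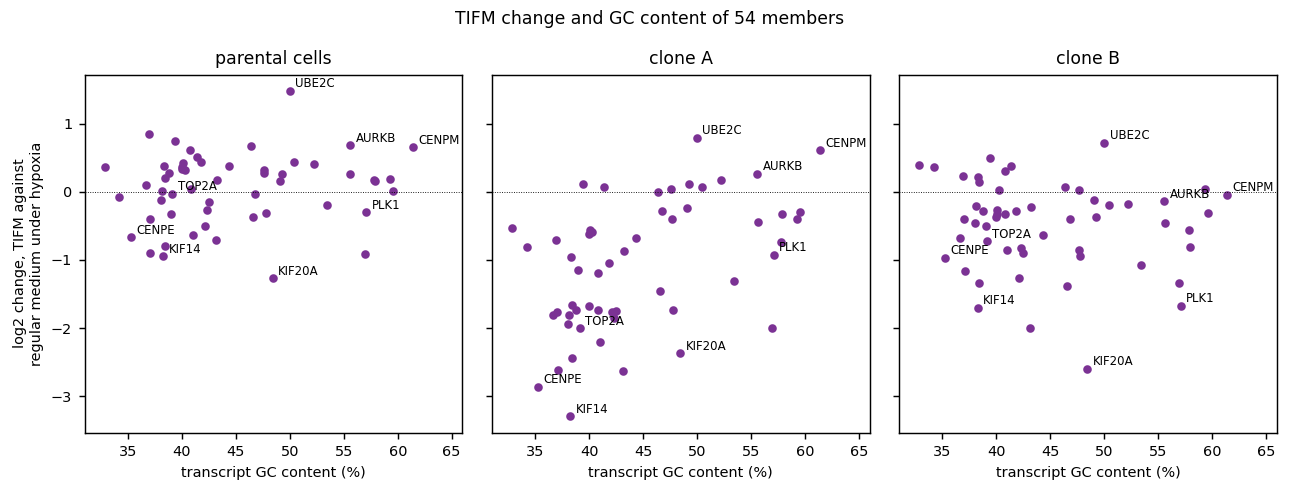
Log2 change with TIFM under hypoxia against the GC content (%) of each member's transcript, for the 54 tested members (points) in parental cells, clone A and clone B; 8 members are named. In clone A the members of lower GC content lie lower (median −1.67 against −0.40), and in clone B the medians are −0.32 for lower and −0.46 for higher GC content.

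In clone B 27 members fell with TIFM and 3 rose, where 53.7% of all genes were called, 27.9% lower and 25.9% higher, and the median was −0.37. KIF20A fell most, from 74.4, 105 and 104 to 18.04, 14.9 and 13.7 CPM, a log2 change of −2.60 ± 0.13 (SE, adjusted p = 1.42e-13). CCNB1 went from 209, 281 and 279 to 84.5, 61.7 and 46.3 CPM (−1.998 ± 0.16 (SE, adjusted p = 1.36e-10)), PLK1 from 82.7, 104 and 104 to 32.2, 27.4 and 31.5 CPM (−1.67 ± 0.16 (SE, adjusted p = 3.93e-09)), and KIF14 changed by −1.70. For each of these genes all TIFM libraries lay below all libraries in regular medium. The members that rose were UBE2C, from 48.6, 58.0 and 49.1 to 93.0, 86.7 and 76.0 CPM (0.72 ± 0.16 (SE, adjusted p = 0.000446)), MAD2L1 (0.50) and BUB3, from 321, 369 and 345 to 468, 441 and 432 CPM (0.37). CDK1 was at 164, 243 and 174 CPM in regular medium and 281, 212 and 191 in TIFM (log2 0.24), and KIF11 at 139.7, 213 and 172 and 247, 186 and 175 CPM (log2 0.21).

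The TIFM comparisons of the 3 genotypes rest on different libraries. The 11 members that fell in parental cells (CCNA2, CCNB1, ESPL1, CENPA, CENPE, CENPI, AURKA, DLGAP5, ASPM, KIF14 and KIF20A) also fell in both clones. They were 100% of those that fell in parental cells, 26.8% of the 41 in clone A and 40.7% of the 27 in clone B. The overlap was not tested. UBE2C was the 1 member that rose in all 3 genotypes. Of the 12 that rose in parental cells, 5 fell in clone A (CDK1, CCNB2, TTK, NDC80 and SPC25) and 2 fell in clone B (CCNB2 and SPC25). AURKA, which fell in all 3 genotypes, was at 92.8, 116 and 82.8 CPM in parental TIFM, 103, 95.9 and 109 in clone A and 77.0, 65.1 and 60.1 in clone B, and CENPA at 31.5, 41.0 and 32.3, 24.7, 23.4 and 25.97 and 26.6, 23 and 29.4 CPM.

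The TIFM responses of the genotypes were then compared directly. The response of clone A minus that of parental cells was below 0 in all 54 members and called in 43, with 38.9% of all genes called and 19.6% called lower, and its median was −1.07. The largest were KIF14 (−2.35 ± 0.37 (SE, adjusted p = 1.98e-05)), CENPE (−2.19), ANLN (−2.03) and NUF2 (−2.01), a subunit of the NDC80 complex. For clone B minus parental cells 18 were called, all lower, with 10.4% of all genes called, 4.06% higher and 6.34% lower, and the median was −0.60. PLK1 (−1.37 ± 0.22 (SE, adjusted p = 0.000239)), KIF20A (−1.33), CCNB1 (−1.30) and the phosphatase CDC25C (−1.12) were the largest. The count was 9 without hypoxic library 2 of clone B and 11 without its hypoxic library 3 or without parental TIFM library 2. Both responses include the hypoxic libraries in regular medium, in which 48 members were called higher than in parental cells in clone A and 24 higher and 3 lower in clone B, and both use the same parental libraries. The hypoxia responses end in these hypoxic libraries, so a higher hypoxia response and a lower TIFM response are not independent results.

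Between the clones 26 members were called, with 40.0% of all genes called. The response of clone B was the higher in 25 and the lower in 1, and the median of B minus A was 0.62. CENPE (1.89 ± 0.35 (SE, adjusted p = 0.000239)), PLK4 (1.80), KNL1 (1.602) and KIF14 (1.59) differed most. PLK1 went the other way (−0.74 ± 0.22 (SE, adjusted p = 0.00932)). By role, 7 of 12 kinetochore genes, 7 of 13 spindle genes and 5 of 6 cytokinesis genes were higher, and no passenger complex gene was called. The members' difference between the clones was correlated with transcript GC content at r = −0.76 (−0.35 over all genes), with a median of 1.18 in the 27 members of lower and −0.01 in the 27 of higher GC content, and with GC and length offsets 25 were higher and none lower.

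In TIFM itself clone A differed from parental cells in both directions. There 11 members were higher and 24 lower (20.4% and 44.4%), where 61.7% of all genes were called, 30.9% higher and 30.7% lower. The members' share of 35 called in 54 was near that of all genes. CENPM (1.00), BIRC5 (0.92 ± 0.18 (SE, adjusted p = 7.03e-05)), NCAPH (0.92) and AURKB (0.73) were the highest, and all 3 passenger complex genes were higher. ANLN (−1.98 ± 0.19 (SE, adjusted p = 2.85e-09)), KIF14 (−1.43), KIF23 (−1.40) and CCNB1 (−1.22) were the lowest, and 8 of 12 kinetochore genes were lower. Clone B had 6 higher and 21 lower (11.1% and 38.9%), where 47.5% of all genes were called, 22.1% higher and 25.4% lower. Its share of 27 called in 54 was also near that of all genes. KIF20B (0.89), CENPK (0.69), NCAPG (0.54) and ECT2 (0.45) were the highest, and CCNB2 (−1.54 ± 0.15 (SE, adjusted p = 5.57e-09)), UBE2C (−1.24), ANLN (−1.14) and KIF20A (−1.10) the lowest. With only the 2 groups in the fit, 19 members were called in clone A.

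Related genes outside the 56 were called in both directions with TIFM. Of 29 other kinetochore and centromere genes 14 rose and 2 fell in parental cells, 13 and 9 in clone A and 12 and 4 in clone B. Over all genes 21.8% were called higher and 20.4% lower in parental cells, 33% and 34.2% in clone A and 25.9% and 27.9% in clone B, and the difference of the list from all genes was not tested. CENPQ, a subunit of the constitutive centromere network, rose by log2 1.41, 1.40 and 1.46 in the 3 genotypes, and HJURP, the chaperone of CENPA, changed by −0.53, −1.58 and −1.20. Of 27 other spindle and cytokinesis genes 8, 17 and 13 fell in parental cells, clone A and clone B, and 4, 7 and 3 rose, with FAM83D at −1.01, −3.14 and −2.68. The phosphatase CDKN3 changed by log2 −1.21, −2.92 and −1.94 and PKMYT1, a kinase that inhibits CDK1, rose by 1.61, 1.65 and 1.28. All 9 centriole duplication genes fell in clone A (CCP110 at −3.49), against 1 in parental cells and 1 in clone B.

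Over the 9 groups the highest mean CPM was in hypoxic clone A for 31 of the 54 tested members, in parental normoxia for 9, in clone A normoxia for 7, in clone A TIFM for 5 and in parental TIFM for 2. The lowest was in clone A TIFM for 19, clone B TIFM for 16, parental hypoxia for 15, parental TIFM for 3 and clone B hypoxia for 1. Split by promoter, with no test, the 24 tested members with both a CHR and a CCAAT match had a median log2 change of −0.72 under hypoxia in parental cells and the 21 tested members with a promoter entry but not both motifs −0.76. With TIFM in clone A the medians were −1.34 and −1.05 in the same order.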

How the data were processed

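PolyA RNA of 27 Panc1 libraries, 3 for each of 9 groups, was sequenced, and the table the authors deposited holds whole-number counts of reads for each gene, with no normalization. The submitters' processing notes name HISAT2, featureCounts and the genome build GRCh38. The sources used here give no version, annotation or strand setting, and without strand, reads of overlapping genes cannot be told apart. Symbols and coordinates come from GENCODE v29 (GRCh38), which with the supplied name table gave a symbol to 21432 of 21487 identifiers. Promoters are from RefSeq (GRCh38.p14).

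All libraries were fitted together in edgeR 4.0.16 (R 4.3.3) after filterByExpr (minimum count 10, minimum total 15; 13943 genes kept), with TMM scaling, 1 coefficient per group and robust quasi-likelihood F tests. P-values were adjusted by Benjamini-Hochberg over all 13943 genes in each of 18 contrasts and called under 0.05. On simulated counts for hypoxia in parental cells over 13943 genes, 49% of 1.5-fold and 74% of 2-fold changes were recovered, with 1 false call. Only 100 genes of each size, drawn at random from all tested genes, were changed there. That is far fewer than were called in the data, so these shares need not hold for the members in this comparison. Alternatives were DESeq2 1.42.0, other scalings and filters, only the groups compared, a replicate block, leaving out single libraries, and, chosen after seeing the data, offsets for GC content and length and leaving out both clone hypoxia libraries numbered 1. Counts of pairs of replicates differed by more than sampling noise (chi-square per degree of freedom 4.61 to 219.5), so no pair was taken to be the same library counted again.

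The members and lists were chosen with earlier results of these data known. By a set rule the text gives library values for 16 members and the most changed ones, and for each comparison up to 4 called members of largest change in each direction. Other names were added after their values were seen and serve as description.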

Additional observations from a re-analysis of the deposited data

Results flagged for a closer look

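The response to hypoxia differed between genotypes by the interaction test (edgeR, adjusted over all genes). Members with a different response than parental cells numbered 33 in clone A and 12 in clone B, all higher, where 6.23% and 4.73% of all genes were called. Leaving out single libraries gave 1 to 22 for clone B. The largest log2 differences in clone A were those of CENPE (1.55), KIF18A (1.32), KIF20B (1.29) and TTK (1.28), and in clone B those of CKAP2L (0.98), ECT2 (0.82), PLK1 (0.82) and AURKA (0.77).

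The response to TIFM starts from the hypoxic libraries in which the hypoxia response ends, so it is no independent result. The median difference from parental cells in normoxia, hypoxia and hypoxic TIFM was −0.02, 0.93 and −0.24 in clone A. In clone B it was −0.27, 0.38 and −0.18. The TIFM response was lower than in parental cells for 43 members in clone A, led by KIF14 (−2.35), CENPE (−2.19), ANLN (−2.03) and NUF2 (−2.01). In clone B it was lower for 18, led by PLK1 (−1.37), KIF20A (−1.33), CCNB1 (−1.30) and CDC25C (−1.12). Of all genes 38.9% and 10.4% were called. Leaving out single libraries gave 9 to 25 for clone B. Between clone B and clone A the TIFM response differed for 26 members, with 40.0% of all genes called. CENPE (1.89), PLK4 (1.80), KNL1 (1.602) and KIF14 (1.59) were higher in clone B and PLK1 (−0.74) was lower. Groups of 3 libraries were not tested for outliers.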

How the results depend on the processing

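None of the 126 named member changes reversed under any alternative run. They were named because they were called in the full fit, and every run reused libraries of that fit. A kept direction was therefore likely beforehand. With 1 library left out, 757 results for these changes kept the call and 125 lost it. Scaling with DESeq2's size factors or upper quartiles, either filter on low counts and the replicate block left each count of called members within 1.5 times. With only the groups compared in the fit, the counts became 24 (7 in the full fit) for hypoxia in clone A and 14 (0) in clone B, 23 (6) for clone A against parental cells in normoxia and 19 (35) in hypoxic TIFM, 34 (9) for clone B in normoxia, and 50 (33) and 45 (12) for the difference of the hypoxia response from parental cells in clones A and B. With GC and length offsets they became 17 and 7 for hypoxia in clones A and B, 23 for clone B in normoxia, 31 for the difference of clone B's hypoxia response from the parental one and 29 (18) for that of its TIFM response. DESeq2 gave 11 and 1 for hypoxia in clones A and B and 21 for the difference of clone B's hypoxia response, which became 26 without both clone hypoxia libraries numbered 1. The full fit shared 1 estimate of each gene's spread over all groups. The coefficient of variation within a group was 4.54% in clone B and 5.47% in clone A in normoxia, 5.01% in hypoxic parental cells and 29.3% in clone A in hypoxic TIFM. Its part in these counts was not tested. Beyond the choice of groups or libraries itself, the cause was not tested.

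Leaving out 1 library at a time, the counts ranged from 3 to 10 for hypoxia in clone A, 0 to 2 in clone B, 15 to 20 (23) for TIFM in parental cells, 1 to 4 for clone A in normoxia, 13 to 31 (27) for clone B in hypoxia, 1 to 22 for the difference of clone B's hypoxia response from the parental one and 9 to 25 for that of its TIFM response. Deviations of same-numbered libraries had a median correlation of −0.0054 over 108 pairs (range −0.19 to 0.45), against 0.0031 over 216 pairs of different number (−0.49 to 0.28). Not every same-numbered pair correlated above 0.1, so the numbers were not taken to pair libraries. That rule asks for all pairs at once, so it cannot exclude a pairing or batch within some of the groups. The hypoxic libraries numbered 1 of both clones each had the lowest median member level of their group. The replicate block gave 46, 8 and 0 members called for hypoxia in the parental, clone A and clone B cells, 24, 43 and 30 for TIFM, 36 and 13 for the hypoxia responses and 43 and 19 for the TIFM responses minus parental cells. Low counts limit CENPN, NUSAP1 and PRC1, whatever their source.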
